A study of Homo sapiens with 12 samples.

Results

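The glycolysis and pyruvate entry genes are a set of 37 genes chosen by symbol for their place in the pathway: the glucose transporters, the enzymes from hexokinase to lactate dehydrogenase with their isoforms, the lactate exporters, and the carrier, dehydrogenase and kinases that bring pyruvate into mitochondria. All 37 were found among the 58233 genes of each deposited table, and 0 symbols occurred more than once. They were followed in 12 RNA-seq libraries of the K562 line, which was derived from human chronic myeloid leukaemia and has erythroid character, grown in culture with serum. Editing was with CRISPR/Cas9. The mutant ASXL1 allele of K562 was knocked out in 3 clones, which were set against 3 parental clones. FOXK1 was targeted in 2 cell pools and FOXK2 in 2 cell pools, and both were set against the same 2 pools labelled SCR, the control of the deposited comparisons. The labels describe no ASXL1 edit in the parental clones or in any pool. A clone is 1 cell's descendants and can carry differences of its own. The labels do not give the share of edited cells in a pool, and in bulk RNA fewer cells with a transcript and less of it per cell cannot be told apart.

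Glycolysis turns glucose into pyruvate in the cytosol. Pyruvate is then either reduced to lactate by lactate dehydrogenase and exported, or carried into mitochondria and oxidised to acetyl-CoA by pyruvate dehydrogenase, which the PDK kinases switch off by phosphorylation and the PDP phosphatases switch back on. FOXK1 and FOXK2 are forkhead transcription factors described in other cell types as inducers of aerobic glycolysis, acting on hexokinase 2, phosphofructokinase, pyruvate kinase, lactate dehydrogenase and the PDK kinases. ASXL1 is a chromatin protein and a partner of the histone H2A deubiquitinase BAP1, and both FOXK proteins bind that complex. TXNIP, the remaining member, is an arrestin-like protein that removes glucose transporters from the cell surface and is itself induced by glucose.

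The deposited values are FPKM, fragments per unit of transcript length and of library size, so levels are given per length. Their sum per library was 824692 to 975657, lowest in the 3 mutant ASXL1 knockout clones, and 13348 to 13681 genes reached 1 FPKM. The transcript of ASXL1 was at 49.7, 58.5 and 39.8 FPKM in the parental clones and 32.0, 26.9 and 29.2 FPKM in the knockout clones (log2 difference -0.72, SE 0.14, limma adjusted p = 0.0142), a call lost without knockout clone 3. The authors' deposited table gives it as -0.08 (adjusted p = 0.436), which is not a call. FOXK2 was at 42.6 and 40.7 FPKM in the SCR pools and 25.5 and 27.5 FPKM in the FOXK2 pools (log2 difference -0.64, SE 0.070, limma adjusted p = 0.0445). Its log2 difference was -0.69 to -0.58 under the 13 alternative settings, but the call was not kept under all of them. A fit without 1 of the 4 pools leaves 1 library in a group and cannot show whether this call holds. FOXK1 was at 6.24 and 6.26 FPKM in the SCR pools and 5.59 and 6.07 FPKM in the FOXK1 pools (log2 difference -0.087, SE 0.10, limma adjusted p = 0.648), and a coding edit can leave RNA in place. The authors' deposited table gives FOXK1 as -0.26 (adjusted p = 0.0189), a call. All 8 erythroid and K562 markers were present, and their summed FPKM was 11566 to 21131 for the parental and 9814 to 14122 for the ASXL1-edited clones, 14430 to 15200 in the SCR pools, 24110 to 24891 in the FOXK1 pools and 21608 to 24615 in the FOXK2 pools. Most of each sum was the fetal globin transcript HBG2. Against SCR, 7 of the 8 were higher without overlap in the FOXK1 pools and 4 in the FOXK2 pools, beside 31.3% and 29.2% of all tested genes. GATA1 and KLF1, erythroid transcription factors, were the 2 of these 8 whose ASXL1 groups did not overlap, where 42.9% of all tested genes did not. GATA1 was at 246 to 287 FPKM in the parental and 190 to 204 FPKM in the knockout clones, and KLF1 at 114 to 122 against 81.8 to 96.6 FPKM. EPCAM was at 71.0 to 75.4 against 88.6 to 103.6 FPKM and CD3D at 50.7 to 67.0 against 37.8 to 41.6 FPKM. The part of these markers in the ASXL1 differences of the members was not tested. Of the lymphoid markers 2 of 5 reached 1 FPKM in some library, with a sum of 21.1 to 70.0 FPKM and MS4A1 at 0 throughout, as did 2 of 3 monocyte markers and 3 of 5 fibroblast and epithelial markers.

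Most of the pathway was strongly transcribed. Of the 37 members, 33 were at 1 FPKM or more in all 12 libraries, 12 at 100 FPKM or more, and 4 at 1000 FPKM or more: the aldolase ALDOA, the dehydrogenase GAPDH, the enolase ENO1 and the lactate dehydrogenase subunit LDHB. Together the 37 held 1.06% to 1.18% of each library's summed FPKM. The 4 that fell under 1 FPKM somewhere were the kinases PDK2 and PDK3, the phosphatase PDP1 and the lactate exporter SLC16A3. Some steps with several isoforms had 1 dominant isoform per length and others did not. HK1 made up 94.2% to 96.8% of the summed FPKM of HK1 and HK2, ALDOA 94.9% to 98.1% of ALDOA and ALDOC, ENO1 97.7% to 99.0% of the 3 enolases, and SLC16A1 96.9% to 99.3% of the 2 monocarboxylate transporters. Phosphofructokinase 1 was split among 3 genes, with PFKP at 35.2% to 45.3%, PFKL at 32.9% to 42.7% and PFKM at 19.1% to 27.9% of their sum. PFKFB2, PFKFB3 and PFKFB4 each held 22.6% to 49.2% of theirs, LDHA 36.4% to 43.0% of LDHA and LDHB, and SLC2A1 35.2% to 82.8% of SLC2A1 and SLC2A3. PDK1 was the main listed kinase of pyruvate dehydrogenase, at 73.1% to 93.4% of PDK1, PDK2 and PDK3.

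**Figure D1:**
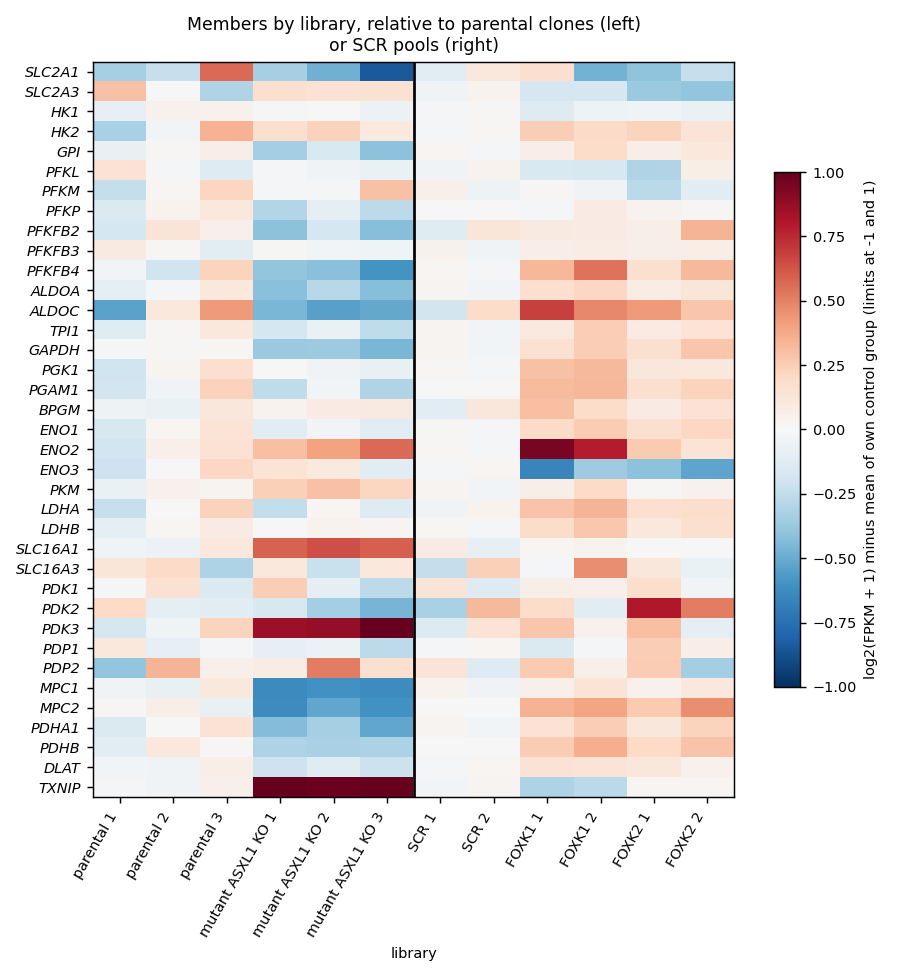
Heat map of the 37 members (rows, in pathway order) in the 12 libraries (columns). Colour is log2(FPKM + 1) minus the mean of the library's own control group, parental clones on the left of the line and SCR pools on the right, with the scale ending at -1 and 1. TXNIP, PDK3 and SLC16A1 are red and MPC1 and MPC2 blue in all 3 mutant ASXL1 knockout clones, and ENO2 is red in both FOXK1 pools.

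In the mutant ASXL1 knockout clones 13 members passed the test, 5 as higher and 8 as lower. TXNIP rose 2.23-fold, the lactate and pyruvate transporter SLC16A1 1.53-fold, and the kinase PDK3 rose from under 1 FPKM to about 2 FPKM. Both subunits of the mitochondrial pyruvate carrier, MPC1 and MPC2, fell to 0.649 and 0.666 of the parental level, and the pyruvate dehydrogenase subunits PDHA1 and PDHB and the enzymes GAPDH, ALDOA and GPI also fell. Differences were tested with limma on log2(FPKM + 1) in genes that reached 1 FPKM in at least as many libraries as 1 group has, adjusted over all such genes, and folds are on that scale. Of the 35 members tested (PDK2 and PDP1 were too low), 5 were higher and 8 lower at a limma adjusted p under 0.05, which is 37.1% of those tested. PDK3, counted among the 5, met the filter only through the knockout clones, where it is high. Over all 13597 genes tested 22.4% were called, 7.91% higher and 14.4% lower. The members' median log2 difference was -0.04, beside -0.06 over all tested genes. The 2 groups did not overlap for 16 of the 35, with 5 members higher and 11 lower, against 42.9% of all tested genes (16.3% higher, 26.6% lower). The share of higher genes among all calls depended on the scaling: it was 35.4% as deposited and 50.5% after median-ratio scaling between libraries, where 5 members were higher and 6 lower.

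**Figure D2:**
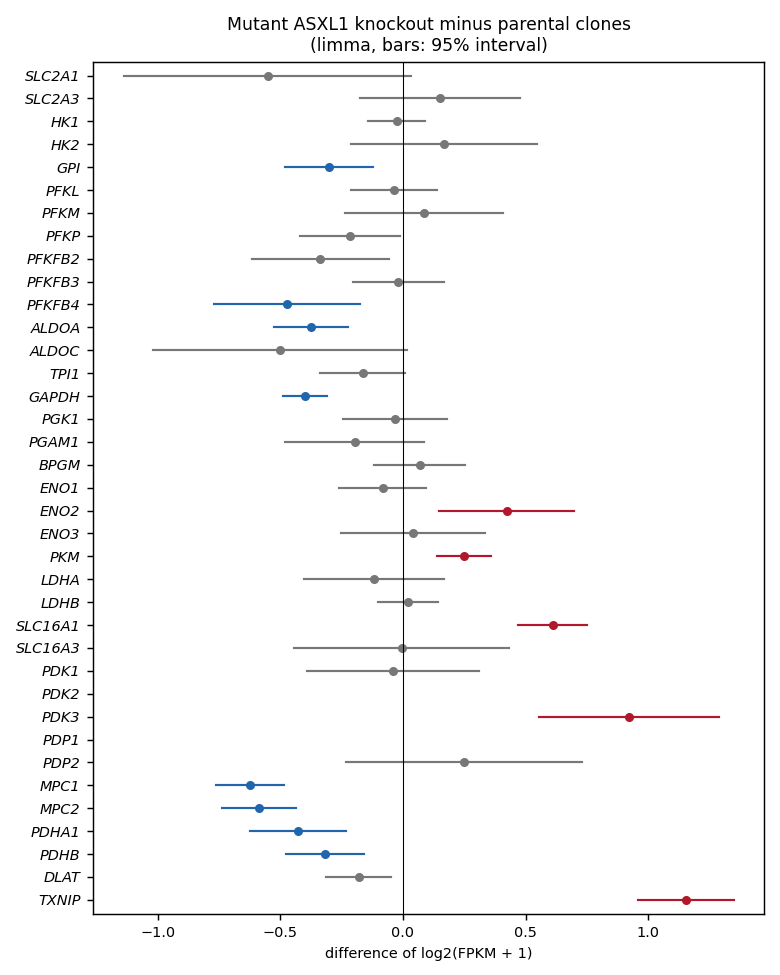
Difference between mutant ASXL1 knockout and parental clones for each member in log2(FPKM + 1), with the 95% interval from limma (3 clones in each group). Red and blue points are the 5 higher and 8 lower members at an adjusted p under 0.05. Grey points did not pass, and PDK2 and PDP1 were not tested.

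TXNIP (ENSG00000265972, chr1:145992435-145996600, minus strand, GRCh38) was at 78.5, 77.1 and 82.1 FPKM in parental clones 1 to 3 and 183, 157 and 195 FPKM in knockout clones 1 to 3. Every knockout clone was far above every parental clone (log2 difference 1.15, SE 0.083, limma adjusted p = 0.000948). Outside the 37, on a list of 62 further genes of glucose metabolism, ARRDC4, a close relative of TXNIP that also lowers glucose uptake, was at 2.92, 3.05 and 3.08 FPKM against 6.49, 5.38 and 6.20 FPKM (log2 difference 0.80, SE 0.10, limma adjusted p = 0.00378). GFPT1, which diverts fructose-6-phosphate into the hexosamine pathway, was at 6.84, 7.42 and 8.18 FPKM against 12.6, 12.4 and 13.3 FPKM (log2 difference 0.70, SE 0.086, limma adjusted p = 0.00353). For these 2 genes too the groups did not overlap. TXNIP and ARRDC4 are textbook targets of the glucose-sensing factors MLXIP and MLXIPL with their partner MLX, which bind carbohydrate response elements. MLX itself was at 69.1, 64.8 and 63.4 FPKM in the parental and 50.9, 52.8 and 48.4 FPKM in the knockout clones (log2 difference -0.37, SE 0.059, limma adjusted p = 0.00788). MLXIP and MLXIPL did not pass (log2 difference -0.051 and 0.076, limma adjusted p = 0.645 and 0.690).

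The promoters of these 3 genes are shown because all 3 rose and 2 of them are known targets of factors that bind the carbohydrate response element. Each is the 250 bases before the RefSeq start in GRCh38.p14, written 5′ to 3′ on the gene's strand, with matches to 4 searched motifs on either strand in capitals: GTAAACA (forkhead), the carbohydrate response element (a pair of CACGNG set 5 bases apart), ACGTG (core of the hypoxia response element) and CACGTG (E-box, which contains ACGTG). TXNIP lies at chr1:145996580-145996829, minus strand, GFPT1 at chr2:69387228-69387477, minus strand and ARRDC4 at chr15:97960453-97960702, plus strand.
TXNIP: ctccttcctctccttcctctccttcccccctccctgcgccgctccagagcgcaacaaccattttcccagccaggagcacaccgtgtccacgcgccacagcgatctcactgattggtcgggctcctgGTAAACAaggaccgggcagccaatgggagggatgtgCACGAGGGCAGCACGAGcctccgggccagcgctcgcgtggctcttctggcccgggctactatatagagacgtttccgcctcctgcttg
GFPT1: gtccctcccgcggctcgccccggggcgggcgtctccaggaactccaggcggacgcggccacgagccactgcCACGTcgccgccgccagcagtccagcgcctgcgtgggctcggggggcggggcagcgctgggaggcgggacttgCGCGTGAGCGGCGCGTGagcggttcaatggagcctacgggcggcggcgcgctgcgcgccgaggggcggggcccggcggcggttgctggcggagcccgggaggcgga
ARRDC4: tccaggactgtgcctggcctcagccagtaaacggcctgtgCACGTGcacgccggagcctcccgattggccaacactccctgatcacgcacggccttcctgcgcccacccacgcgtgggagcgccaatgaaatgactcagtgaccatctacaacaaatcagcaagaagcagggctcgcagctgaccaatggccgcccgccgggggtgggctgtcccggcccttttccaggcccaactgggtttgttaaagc
TXNIP was the only member of the 33 with a promoter in the table that held the carbohydrate response element, at -88 to -72 from the start, and the pattern occurred in 20 of 35116 promoters of 300 bases (0.057%). GFPT1 was another of the 20, with its match on the opposite strand at -106 to -90, and ARRDC4 was not among the 20. TXNIP was also the only member with GTAAACA, at -124 to -118, a sequence in 3.42% of all promoters. ACGTG was in 13 of the 33 members (39.4%) against 21.4% of all promoters, and CACGTG in 5 (15.2%) against 7.26%. SLC2A3, PFKFB2, SLC16A1 and PDP1 had no entry. A match describes the letters and not a bound site, and no binding was measured.

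Of the 2 lactate exporters among the members SLC16A1 rose, and of the 5 members of the pyruvate carrier and dehydrogenase 4 fell in the mutant ASXL1 knockout clones. Of all tested genes 7.91% were called higher and 14.4% lower. SLC16A3 was at a log2 difference of -0.0056 (limma adjusted p = 0.986). SLC16A1 (MCT1, chr1:112911847-112957013, minus strand), which carries lactate and pyruvate across the plasma membrane, was at 53.8, 53.2 and 59.7 FPKM in the parental and 84.1, 87.2 and 84.5 FPKM in the knockout clones (log2 difference 0.61, SE 0.060, limma adjusted p = 0.00187). MPC1 (chr6:166364919-166383013, minus strand) was at 110.3, 108 and 122 against 72.5, 74.2 and 72.7 FPKM (log2 difference -0.62, SE 0.059, limma adjusted p = 0.00171). MPC2 (chr1:167916729-167937040, minus strand) was at 38.2, 39.6 and 35.9 against 24.1, 26.1 and 24.5 FPKM (log2 difference -0.59, SE 0.064, limma adjusted p = 0.00262). The carrier is a heterodimer of these subunits, and neither had a knockout clone that reached the parental range. The exons of MPC2 overlap DCAF6 on the opposite strand, at a mean of 23.7 FPKM over the 12 libraries, and nothing in the labels says that strand was kept. PDHA1, the E1 alpha subunit of pyruvate dehydrogenase, was at 370.3, 411 and 453 against 304, 325 and 286 FPKM (log2 difference -0.43, SE 0.083, limma adjusted p = 0.0139). PDHB, the E1 beta subunit, was at 46.7, 54.5 and 51.0 against 40.6, 40.1 and 40.5 FPKM (log2 difference -0.32, SE 0.067, limma adjusted p = 0.0188). The third subunit on the list, DLAT, was 63.4 ± 2.58 FPKM against 55.8 ± 2.09 FPKM (SD, n = 3 each) and did not pass (log2 difference -0.18, SE 0.056, limma adjusted p = 0.0599). PDHX and DLD, the subunits of the complex on the list of 62, did not pass either (log2 difference -0.11 and 0.032). The call of PDHA1 was lost without parental clone 2, knockout clone 1 or knockout clone 3, and that of PDHB without parental clone 2 or any 1 knockout clone.

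Among the regulators of pyruvate dehydrogenase, PDK3 (chrX:24465221-24541862, plus strand) was at 0.407, 0.544 and 0.856 FPKM in the parental and 1.88, 1.93 and 2.24 FPKM in the knockout clones (log2 difference 0.92, SE 0.15, limma adjusted p = 0.00898). It entered the test only through the knockout clones, so its call is not separate from the filter. Its size also depended on the pseudocount, with a log2 difference of 1.64 at a pseudocount of 0.1. PDK3 stayed a minor kinase by level, but its share of PDK1, PDK2 and PDK3 was 4.62% to 10.5% in the parental and 16.2% to 26.0% in the knockout clones. PDK1 was at 7.70, 8.76 and 6.95 against 9.38, 7.20 and 6.30 FPKM, with overlapping groups (95% interval of the log2 difference -0.39 to 0.31). PDK4 was at 0 to 0.067 FPKM in all 12 libraries and was not tested. The phosphatase PDP2 was 6.31 ± 1.80 and 7.58 ± 1.41 FPKM (SD, n = 3 each) and did not pass (log2 difference 0.25, SE 0.20, limma adjusted p = 0.414).

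Of the glycolytic enzymes from hexokinase to pyruvate kinase, with the PFKFB regulators, 4 passed as lower and 2 as higher, and most did not pass. Over all tested genes 14.4% were called lower and 7.91% higher. After median-ratio scaling 2 of these enzymes passed in each direction, beside 1407 lower and 1434 higher of all 13590 genes. GAPDH, the glyceraldehyde-3-phosphate dehydrogenase often used as a reference gene, was at 2586, 2645 and 2644 FPKM in the parental and 2029, 2038 and 1908 FPKM in the knockout clones (log2 difference -0.40, SE 0.038, limma adjusted p = 0.00178). ALDOA, which splits fructose-1,6-bisphosphate, was at 1575, 1672 and 1805 against 1258, 1384 and 1249 FPKM (log2 difference -0.38, SE 0.064, limma adjusted p = 0.00936). Both groups were separate for these 2 genes, and both calls were present under all 14 alternatives run. GPI, the glucose-6-phosphate isomerase, was at 244, 259 and 269 against 204, 231 and 193 FPKM (log2 difference -0.30, SE 0.076, limma adjusted p = 0.0327), and PFKFB4, which makes the phosphofructokinase activator fructose-2,6-bisphosphate, at 9.12, 8.004 and 11.0 against 6.84, 6.71 and 5.80 FPKM (log2 difference -0.47, SE 0.13, limma adjusted p = 0.0387). These 2 calls were close to the threshold: each was lost under 9 of 14 alternatives, median-ratio scaling among them. GPI was lost without parental clone 2 or 3 or knockout clone 1 or 3, and PFKFB4 without parental clone 1 or 3 or any 1 knockout clone.

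PKM, the broadly expressed pyruvate kinase, and ENO2, the neuronal and hypoxia-associated enolase, were the 2 glycolytic enzymes that rose. PKM was at 352, 380.2 and 375 FPKM in the parental and 436, 452 and 427 FPKM in the knockout clones (log2 difference 0.25, SE 0.046, limma adjusted p = 0.0127), a call lost without knockout clone 1. PKLR, the red cell and liver pyruvate kinase from the list of 62, was at 99.6, 110.2 and 118 against 67.8, 76.8 and 64.7 FPKM (log2 difference -0.64, SE 0.087, limma adjusted p = 0.00466). The 2 kinases moved apart, and PKM made up 76.0% to 77.9% of their sum in the parental and 85.5% to 86.8% in the knockout clones. ENO2 was at 8.90, 10.7 and 11.6 against 12.9, 14.0 and 15.8 FPKM (log2 difference 0.42, SE 0.12, limma adjusted p = 0.0420), a call lost under 7 of 14 alternatives, among them leaving out any 1 library other than parental clone 3. The main enolase ENO1 was 1298 ± 132 and 1223 ± 43.0 FPKM (SD, n = 3 each), with overlapping groups.

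The glucose transporters, the hexokinases and the 3 phosphofructokinase 1 genes did not pass. SLC2A1 (GLUT1), the main glucose transporter of red cell precursors, was at 29.1, 31.2 and 55.0 FPKM in the parental and 29.1, 26.1 and 20.2 FPKM in the knockout clones (log2 difference -0.55, 95% interval -1.14 to 0.035, limma adjusted p = 0.153). Parental clone 3 was well above the other 2, and parental clone 1 was level with knockout clone 1. HK2, the regulated hexokinase, was at 11.1, 13.9 and 18.3 against 16.1, 16.8 and 15.3 FPKM (log2 difference 0.17, SE 0.16, limma adjusted p = 0.489). PFKM was at 28.5, 34.2 and 39.4 against 33.5, 33.2 and 41.5 FPKM and PFKP at 56.9, 64.8 and 68.1 against 51.3, 58.9 and 52.6 FPKM, both with overlapping groups (limma adjusted p = 0.676 and 0.115). PFKP passed without parental clone 1 (log2 difference -0.29, adjusted p = 0.0488). LDHA, the subunit favouring lactate formation, was at 681, 795 and 937 against 671, 809.9 and 728 FPKM (log2 difference -0.12, SE 0.12, limma adjusted p = 0.513). The 95% interval of the log2 difference was -0.21 to 0.55 for HK2 and -0.41 to 0.17 for LDHA. ALDOC, a minor aldolase, was at 49.3, 77.1 and 96.9 against 52.1, 49.0 and 50.032 FPKM (log2 difference -0.50, SE 0.22, limma adjusted p = 0.142), with parental clone 1 inside the knockout range, and passed without that clone (log2 difference -0.77, adjusted p = 0.00944). The other members that did not pass, SLC2A3, HK1, PFKL, PFKFB2, PFKFB3, TPI1, PGK1, PGAM1, BPGM, ENO3, LDHB and SLC16A3, had log2 differences from -0.34 (PFKFB2) to 0.15 (SLC2A3). Of these, PGK1 was at 198, 231 and 254 FPKM in the parental and 228, 222 and 215 FPKM in the knockout clones. PGAM1 was at 154, 172 and 207 against 147, 173 and 143 FPKM.

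Of the 62 further genes of glucose metabolism 35 were tested in this comparison, and 4 were higher and 6 lower (28.6%). Over all 13597 genes tested 22.4% were called, 7.91% higher and 14.4% lower. GCKR, counted among the 6, met the filter only through the parental clones, where it is high. Besides ARRDC4, GFPT1, PKLR and MLX, the one with the smallest adjusted p was LDHD, the mitochondrial D-lactate dehydrogenase, at 3.21, 3.34 and 3.56 FPKM in the parental and 1.54, 1.15 and 1.30 FPKM in the knockout clones (log2 difference -0.91, SE 0.12, limma adjusted p = 0.00414). The median log2 difference of the 35 was -0.11.

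**Figure D3:**
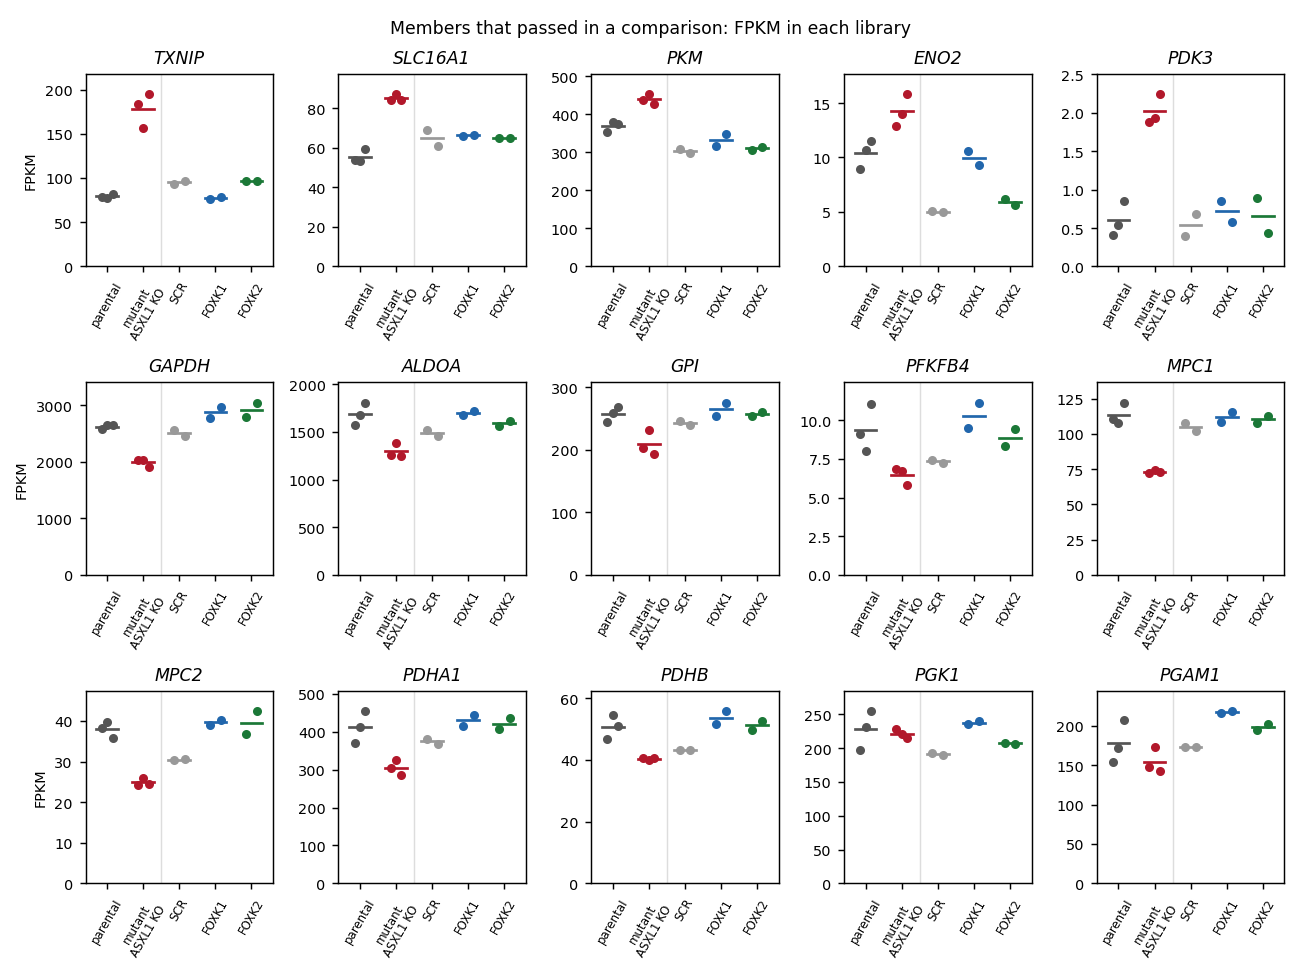
FPKM of the 15 members that passed in at least 1 comparison, by group, with 1 point for each library and a line at the group mean. The grey line parts the ASXL1 clones from the FOXK pools. All 13 ASXL1 calls have no overlap between parental and knockout clones, and PGK1, PGAM1 and ENO2 are higher in both FOXK1 pools than in both SCR pools.

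In the FOXK1 pools 3 members passed as higher and 0 as lower. They were ENO2, which rose 1.82-fold, the phosphoglycerate mutase PGAM1 (1.25-fold) and the ATP-forming phosphoglycerate kinase PGK1 (1.24-fold). The other enzymes from GAPDH to pyruvate kinase did not pass: GAPDH, BPGM, ENO1 and PKM had log2 differences of 0.20, 0.24, 0.22 and 0.13, and ENO3 of -0.51. These were 3 of 35 members tested (8.57%), beside 1.83% of all 13697 genes tested, with 0.679% higher and 1.15% lower. The log2 difference was above 0 for 27 of the 35 members and for 7445 of the 13697 genes, and its median was 0.16 beside 0.02. The SCR and FOXK1 pools did not overlap for 21 members that were higher and 6 that were lower, where 31.3% and 23.6% of all tested genes (54.9% in all) did not. The 3 calls were not kept under all alternatives: 0 members were called without the filter on low FPKM or without the variance trend. A fit without 1 of the 4 pools leaves 1 library in a group and cannot show whether these calls hold. At an unadjusted p under 0.05 there were 19 of the 35 members and 3133 of the 13697 genes in limma.

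ENO2 (ENSG00000111674, chr12:6913745-6923698, plus strand) was at 5.05 and 4.98 FPKM in SCR pools 1 and 2 and 10.6 and 9.35 FPKM in FOXK1 pools 1 and 2 (log2 difference 0.87, SE 0.10, limma adjusted p = 0.0429). PGAM1 (chr10:97426160-97433441, plus strand) was at 173 and 173 against 216 and 218 FPKM (log2 difference 0.32, SE 0.038, limma adjusted p = 0.0417). PGK1 (chrX:77910739-78129296, plus strand) was at 193 and 190.4 against 235 and 240.1 FPKM (log2 difference 0.31, SE 0.039, limma adjusted p = 0.0467). In all 3 the pools of a group lay close together and the groups apart. Named pseudogenes of PGAM1 held at most 1.29% of its FPKM. An exon of PGK1 overlaps ATP7A on the same strand, at a mean of 3.46 FPKM over the 12 libraries. The promoters of PGK1 and ENO2 are shown because both are classical hypoxia-responsive genes and hold ACGTG, in capitals here: PGK1 at chrX:78103998-78104247, plus strand with matches at -202 and -183, and ENO2 at chr12:6914330-6914579, plus strand with a match at -118. Neither holds GTAAACA in the 300 bases searched. PGAM1, the third member called, holds no ACGTG there. ACGTG was in 13 of the 33 members with a promoter, beside 21.4% of all promoters. Among the 13 were HK2, GAPDH and LDHA, which did not pass in the reported fit.
PGK1: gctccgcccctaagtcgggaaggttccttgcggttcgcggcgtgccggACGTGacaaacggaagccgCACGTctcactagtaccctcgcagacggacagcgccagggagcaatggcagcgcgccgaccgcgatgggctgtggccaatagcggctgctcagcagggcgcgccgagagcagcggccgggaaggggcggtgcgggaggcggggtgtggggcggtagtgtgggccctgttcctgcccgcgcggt
ENO2: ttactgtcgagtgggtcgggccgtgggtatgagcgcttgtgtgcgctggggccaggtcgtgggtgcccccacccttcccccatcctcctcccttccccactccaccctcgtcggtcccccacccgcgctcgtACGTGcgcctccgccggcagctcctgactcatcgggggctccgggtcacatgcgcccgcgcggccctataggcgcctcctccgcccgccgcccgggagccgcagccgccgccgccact

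Members just short of the threshold had differences of like size. LDHA was at 659.7 and 691 FPKM in the SCR and 822 and 853 FPKM in the FOXK1 pools (log2 difference 0.31, SE 0.044, limma adjusted p = 0.0573), and it passed with a filter at 5 FPKM and in a joint fit of the 6 pools. TXNIP was at 93.2 and 96.7 against 76.5 and 78.7 FPKM (log2 difference -0.29, SE 0.047, limma adjusted p = 0.0697) and was called lower in the joint fit. MPC2 was at 30.4 and 30.6 against 39.0 and 40.4 FPKM (log2 difference 0.37, SE 0.054, limma adjusted p = 0.0595) and passed with a filter at 5 FPKM. For each of these 3 the pools of the 2 groups did not overlap. PDHA1 was at 382 and 368 against 414 and 444 FPKM (log2 difference 0.20, SE 0.051, limma adjusted p = 0.131), and PDHB at 43.1 and 43.3 against 51.6 and 55.8 FPKM (log2 difference 0.31, SE 0.060, limma adjusted p = 0.0871). Among the kinase and aldolase isoforms, PFKFB4 was at 7.45 and 7.22 against 9.47 and 11.1 FPKM (log2 difference 0.43, SE 0.11, limma adjusted p = 0.119) and ALDOC at 29.1 and 37.7 against 53.6 and 46.5 FPKM (log2 difference 0.58, SE 0.15, limma adjusted p = 0.123). The FOXK1 pools were above both SCR pools for all 4. ENO3, the muscle enolase, was at 13.5 and 14.0 against 8.34 and 10.5 FPKM (log2 difference -0.51, SE 0.12, limma adjusted p = 0.118). The exons of ENO3 overlap PFN1 on the opposite strand, at a mean of 818 FPKM over the 12 libraries, so its reads and those of PFN1 may not be separable without strand. The abundant enzymes ALDOA, at 1516 and 1455 against 1671 and 1716 FPKM, and GAPDH, at 2560.1 and 2457 against 2785 and 2977 FPKM, were higher in both FOXK1 pools without passing (limma adjusted p = 0.101 and 0.126), as was GPI, at 246 and 239 against 254 and 275 FPKM (limma adjusted p = 0.260). SLC16A1 was at 68.8 and 61.2 against 66.0 and 66.6 FPKM and MPC1 at 108 and 102 against 109 and 115 FPKM (limma adjusted p = 0.843 and 0.386). PDK3 was at 0.399 and 0.684 against 0.858 and 0.580 FPKM and was not tested. The erythroid and K562 marker sum was also higher in the FOXK1 than in the SCR pools (24110 to 24891 against 14430 to 15200 FPKM). Most of it was HBG2, at 21925 and 22840 against 13500 and 12742 FPKM, and GATA1 overlapped between the groups. The part of the markers in these differences was not tested.

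Of the steps through which the FOXK factors are described to act, LDHA did not pass in the reported fit but did, as higher, under the settings named above. HK2, PFKL, PFKM, PFKP, PKM and PDK1 did not pass. PFKL was at 49.2 and 51.7 FPKM in the SCR and 45.4 and 45.0 FPKM in the FOXK1 pools, so both FOXK1 pools were below both SCR pools. HK2, PKM and LDHA were above both SCR pools in both FOXK1 pools, and PFKM, PFKP and PDK1 overlapped. Of all tested genes 23.6% were lower and 31.3% higher without overlap. HK2 was at 15.4 and 15.7 FPKM in the SCR and 18.6 and 17.9 FPKM in the FOXK1 pools (log2 difference 0.22, 95% interval 0.043 to 0.40, limma adjusted p = 0.159). PFKM was at 32.8 and 30.7 against 32.0 and 30.9 FPKM (95% interval -0.18 to 0.16), and PFKP at 54.3 and 54.0 against 53.8 and 57.3 FPKM (95% interval -0.11 to 0.18). PKM was at 309.6 and 298 against 317 and 346 FPKM (95% interval -0.029 to 0.28), and PDK1 at 6.19 and 5.00 against 5.82 and 5.80 FPKM (95% interval -0.28 to 0.39). The widest of these intervals was that of PDK1. SLC2A1 was at 80.4 and 93.5 against 96.8 and 62.2 FPKM (95% interval -0.75 to 0.44), with FOXK1 pool 1 above and FOXK1 pool 2 below both SCR pools. Of the 62 further genes 33 were tested and 1 was called: PCK2, the mitochondrial enzyme that makes phosphoenolpyruvate from oxaloacetate, was at 49.4 and 41.6 against 20.3 and 18.5 FPKM (log2 difference -1.18, SE 0.10, limma adjusted p = 0.0260), a call also lost without any 1 pool.

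In the FOXK2 pools 0 of the 34 members tested passed the limma threshold, where 1.02% of all 13672 genes did (0.146% higher, 0.87% lower). At an unadjusted p under 0.05 there were 11 of the 34 members and 2828 of the 13672 genes. The log2 difference was above 0 for 27 of the 34 members and 7223 of the 13672 genes, with a median of 0.10 beside 0.01. The groups did not overlap for 21 members that were higher and 5 that were lower, beside 29.2% and 24.8% of all tested genes (54% in all). Both FOXK comparisons use the same SCR pools, so likeness between them is not independent. PGK1 was at 207 and 207 FPKM in FOXK2 pools 1 and 2, PGAM1 at 194 and 202 FPKM and LDHA at 759 and 764 FPKM, between the SCR and the FOXK1 values. ENO2 was at 6.22 and 5.60 FPKM (log2 difference 0.20, SE 0.11, limma adjusted p = 0.361), and TXNIP at 96.1 and 96.0 FPKM, within the SCR range (log2 difference 0.017, SE 0.051, limma adjusted p = 0.882). Among the more abundant members GAPDH was at 2802 and 3047 FPKM, ALDOA at 1562 and 1618 FPKM, MPC2 at 36.7 and 42.4 FPKM and PDHB at 49.8 and 52.7 FPKM (limma adjusted p against SCR from 0.142 to 0.355). GPI at 254 and 261 FPKM, PFKFB4 at 8.30 and 9.43 FPKM, MPC1 at 108 and 113 FPKM and SLC16A1 at 65.1 and 64.8 FPKM did not pass either, and PDK3, at 0.888 and 0.433 FPKM, was not tested. The erythroid and K562 marker sum was 21608 to 24615 FPKM in these pools, of which HBG2 held 20063 and 22464 FPKM. HBZ, GATA1, TAL1 and KLF1 overlapped the SCR pools. The part of the markers was not tested here either.

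Both glucose transporters were at lower values in both FOXK2 pools than in both SCR pools, without passing, beside 24.8% of all tested genes. SLC2A3 (GLUT3), a high-affinity transporter, was at 22.1 and 23.3 FPKM in the SCR and 17.3 and 17.0 FPKM in the FOXK2 pools (log2 difference -0.39, SE 0.070, limma adjusted p = 0.101), and it was called lower in the joint fit (adjusted p = 0.0495). SLC2A1 was at 80.4 and 93.5 against 65.4 and 73.6 FPKM (log2 difference -0.32, SE 0.10, limma adjusted p = 0.197). Named pseudogenes of SLC2A3 held up to 13.0% of its FPKM. In the FOXK1 pools SLC2A3 was also below both SCR pools, at 20.1 and 20.1 FPKM (log2 difference -0.17, limma adjusted p = 0.224). HK2 was at 18.3 and 17.1 FPKM, PFKM at 26.2 and 29.4 FPKM, PFKP at 55.4 and 54.5 FPKM, PKM at 307 and 313 FPKM, PDK1 at 6.42 and 5.44 FPKM and PDHA1 at 405 and 436 FPKM in the FOXK2 pools, and none of them passed (limma adjusted p from 0.216 to 0.849). PFKL, at 40.8 and 52.5 FPKM, overlapped the SCR pools and did not pass either. PCK2 was at 23.5 and 24.3 FPKM and was the 1 of 34 further genes called (log2 difference -0.90, SE 0.10, limma adjusted p = 0.0445), again lost without any 1 pool.

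**Figure D4:**
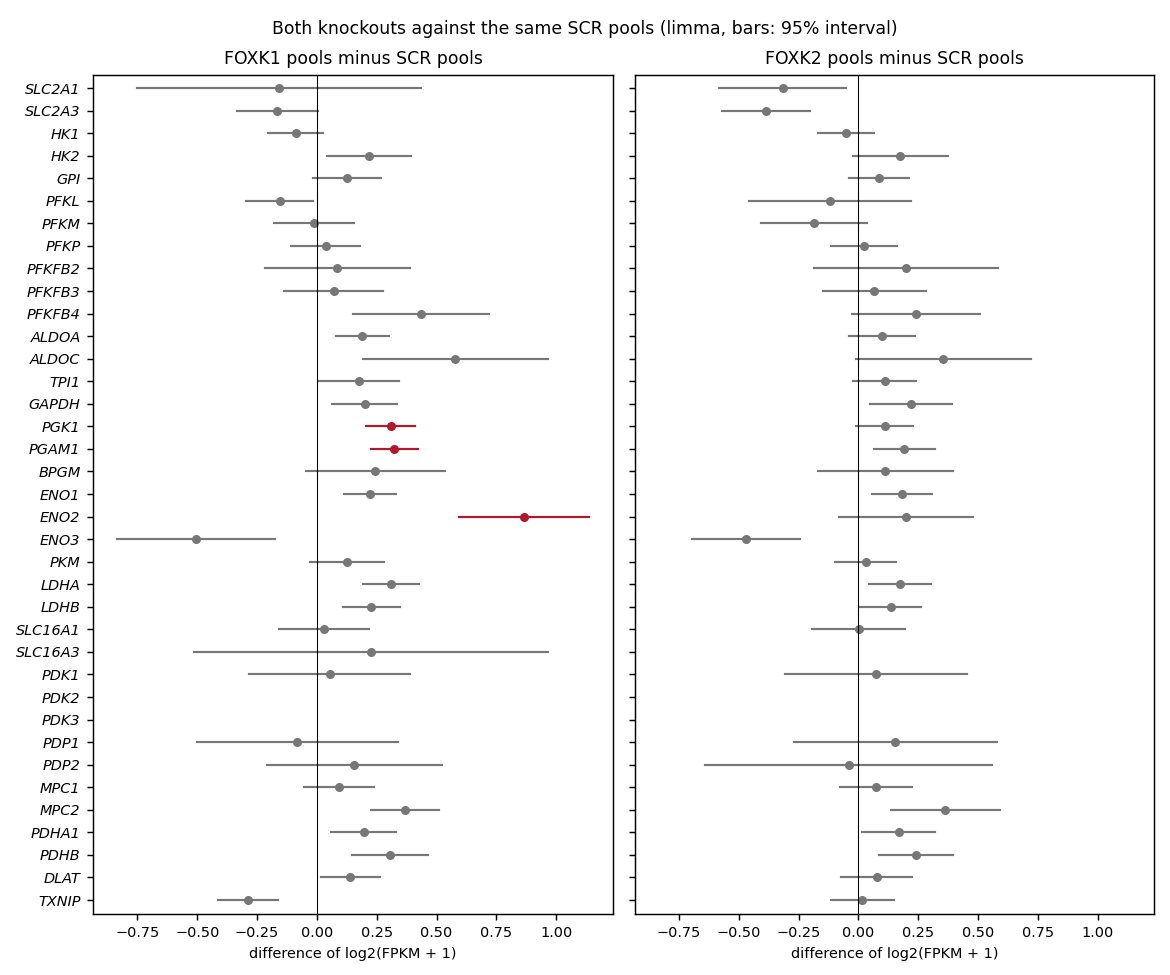
Difference from the SCR pools for each member in log2(FPKM + 1), FOXK1 pools on the left and FOXK2 pools on the right, with the 95% interval from limma (2 pools in each group). Red points are PGK1, PGAM1 and ENO2 at an adjusted p under 0.05 and grey points did not pass. Members without a point were not tested, and both panels share the SCR pools.

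Set directly against each other in a joint fit of the 6 pools, the FOXK2 and FOXK1 pools differed past the threshold in 0 of 35 members, and in 5 of 14055 genes (0.0356%, with 0.00711% higher and 0.0285% lower in the FOXK2 pools). At an unadjusted p under 0.05 there were 6 members and 903 genes. The pools did not overlap for 2 members that were higher and 14 that were lower in the FOXK2 pools, beside 15.5% and 21.3% of all genes (36.7% in all). The differences with the smallest adjusted p were those of ENO2, lower in the FOXK2 pools (log2 difference -0.67, 95% interval -0.92 to -0.41, limma adjusted p = 0.379), and of TXNIP, higher in the FOXK2 pools (0.30, 95% interval 0.19 to 0.42, limma adjusted p = 0.379). PGK1 followed (-0.20, 95% interval -0.30 to -0.10, limma adjusted p = 0.569). ENO2, PGAM1 and PGK1 thus passed against SCR in limma in the FOXK1 and not in the FOXK2 pools, while the direct test of the difference did not pass for any of the 3. The authors' deposited table calls PGK1 and PGAM1 higher in the FOXK2 pools too, but not ENO2.

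Replicates of a group differed among themselves in a way the groups do not explain. Over the 33 members at 1 FPKM or more in every parental clone, parental clone 3 was highest in 22 (66.7%) and parental clone 1 lowest in 22 (66.7%), beside 44.1% and 41.1% of the 12686 genes at that level. HBG2, the fetal globin transcript that leads the erythroid markers, was at 10200.0, 14313 and 19180.0 FPKM in the same clones, and its part in the members' order was not tested. Among the knockout clones, clone 2 was highest in 19 and clone 3 lowest in 19 of 35 members (54.3% each), beside 37.7% and 36.2% of all genes at that level. In the FOXK1 pools pool 2 was highest in 23 of 34 members (67.6%), beside 53.9% of all genes.

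The authors' deposited tables call more genes, members and others alike. At an adjusted p under 0.05 in the authors' deposited table for ASXL1, 6 of the 35 members tested here were higher and 12 lower (51.4%), beside 33.1% of the 13597 genes (16.3% higher, 16.7% lower). In the authors' deposited table for FOXK1, 18 of 35 were higher and 4 lower (62.9%), beside 19.8% of the 13697 genes (9.26% higher, 10.5% lower). In the authors' deposited table for FOXK2, 9 of 34 were higher and 3 lower (35.3%), beside 17.7% of the 13672 genes (6.84% higher, 10.9% lower). The sizes differ from those above in both directions. For ASXL1 the authors' deposited table gives log2 fold changes of 1.26 for TXNIP, 1.83 for PDK3 and 0.68 for ENO2, but 0.33 for SLC16A1, -0.39 for MPC2 and -0.27 for PDHA1. The authors' deposited table also calls SLC2A1 (-0.43) and PDK1 (-0.24) lower and HK2 (0.29) higher there, which did not pass here. For FOXK1 versus SCR the authors' deposited table gives ENO2 as 0.88, ALDOC as 0.69, PDK1 as 0.39, LDHA as 0.35 and HK2 as 0.19, all called higher. It gives ENO3 as -0.57, TXNIP as -0.32, PFKL as -0.20 and SLC2A3 as -0.18, all called lower. For FOXK2 versus SCR the authors' deposited table gives PGK1 as 0.22, LDHA as 0.21 and PGAM1 as 0.18, among those called higher. The 3 called lower there are ENO3 at -0.50, SLC2A3 at -0.45 and SLC2A1 at -0.21. ENO2, at 0.24, is not called.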

How the data were processed

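RNA-seq of K562 clones and pools was analysed from the FPKM deposited by the authors, 1 table per comparison with 58233 genes. Per the submitters' processing notes TopHat, Bowtie, RSEM, edgeR and Cufflinks were used with GRCh38.p10, with no version or role given. Per the labels' protocols, libraries were made from total RNA with a TruSeq kit and random primers, and nothing there states that strand was kept. The log2 fold changes and adjusted p-values in the authors' deposited tables are quoted only where named. The SCR values were identical in both FOXK tables (0 differed).

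The lowest values above 0 fall with gene length: their first percentile was 0.123 FPKM for genes of 300 to 600 bases and 0.010 FPKM for 2400 to 5000, so the values were taken as scaled to length. In each library all values below 1 were multiples of a step between 0.0095 and 0.010365 (tolerance 0.1 of a step), the same for every gene, as rounding to 0.01 and a library factor give. Reads could therefore not be recovered. Depth is unknown, no counting interval is given, and the planned tests on counts were not run.

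Tests were two-sided, with limma 3.58.1 in R 4.3.3, a variance trend, a pseudocount of 1 and Benjamini-Hochberg adjustment over all tested genes, called at 0.05. Each knockout was set against its control alone. FOXK2 and FOXK1 pools were compared in a joint fit of the 6 pools. Gene models came from GENCODE release 29 and promoters from RefSeq (33 of 37 members matched). The scripts were tested on simulated data. Nothing in the labels shows that libraries of a group came from separate cultures, so p-values measure the spread between these libraries.

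The members, the 62 further genes, the markers and the tests were chosen with earlier results of these data known. Values in every library are given for members called in any comparison and for SLC2A1, HK2, PFKM, PFKP, PKM, LDHA, PDK1, PDHA1 and TXNIP. Of the 62, up to 5 called genes with the smallest adjusted p per comparison and PDK4 are named. ALDOC, SLC2A3, MPC2, ENO3 and PFKL in the FOXK comparisons were named after their values were seen, as were those under the within-group differences. So was GCKR in the ASXL1 comparison. Alternatives were other pseudocounts, filters and scalings, no variance trend, a replicate block, other fits of the pools and leaving out each library. Dividing by the library factor and a crossed block were added after seeing the data.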

Additional observations from a re-analysis of the deposited data

How the results depend on the processing

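The ASXL1 calls of TXNIP, SLC16A1, MPC1, MPC2, GAPDH and ALDOA were kept under all 14 alternatives, and PDK3 under the 13 that tested it. The members called there numbered 10 with no filter on low FPKM, 10 with the replicate block and 11 after median-ratio scaling, against 13, and 7 to 13 when 1 library was left out (7 without mutant ASXL1 knockout clone 1, 8 without clone 3). The members' median log2 difference was -0.04 as deposited and 0.013 after median-ratio scaling. The further genes called numbered 7 to 11 without 1 library. For FOXK1 versus SCR the members called were 3 as reported and 5 with a filter at 5 FPKM or in the joint fit. They were 0 with no filter on low FPKM, with no variance trend and with the replicate block. The further gene, PCK2, was called with the replicate block, but 0 were called with no filter and with no variance trend. For FOXK2 versus SCR the joint fit called 1 member, and 0 further genes were called with no filter, with no variance trend and with the replicate block. For FOXK2 versus FOXK1 every alternative called 0 members. In the tests that leave a lone library, it is assumed to vary like the other group, so those fits cannot show whether a FOXK call holds. The cause of these changes was not tested.

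Replicate numbers did not pair the samples (correlations -0.069, 0.084 and -0.083 for ASXL1, -0.13 for FOXK1, -0.052 for FOXK2 and 0.054 for FOXK2 versus FOXK1), and 2 of the 6 ASXL1 and parental clones correlated best with their own number. With the replicate block GPI, PFKFB4 and PDHB were not called, and the calls over all genes fell to 627 higher and 1197 lower for ASXL1, 6 and 31 for FOXK1, 3 and 36 for FOXK2, and 0 and 2 for FOXK2 versus FOXK1. Crossing the FOXK1 numbers called 0 members, 0 further genes, and 10 higher and 24 lower genes in all.

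Log2 differences that changed sign all belonged to members that had not passed. After median-ratio scaling PDK1 was 0.013 in the ASXL1 comparison and TXNIP -0.0016 in FOXK2 versus SCR, and with the library factor removed PDK1 was 0.033 in the ASXL1 comparison and PFKP 0.0051 in FOXK2 versus FOXK1. Leaving out 1 library gave -0.18 to 0.073 for PDK1 and -0.032 to 0.20 for PFKM in the ASXL1 comparison. It gave -0.060 to 0.035 for PFKM, -0.078 to 0.18 for PDK1, -0.47 to 0.16 for SLC2A1 and -0.0079 to 0.081 for PFKP in FOXK1 versus SCR. In FOXK2 versus SCR the range was -0.0092 to 0.043 for TXNIP and -0.057 to 0.20 for PDK1. In FOXK2 versus FOXK1 it was -0.059 to 0.030 for PFKP, -0.47 to 0.16 for SLC2A1, -0.081 to 0.025 for PDHA1, -0.082 to 0.12 for PDK1 and -0.090 to 0.0034 for HK2.

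The planned tests on counts were not run, since whole reads could not be recovered from the values. Depth is unknown, and precision is limited by the 2 or 3 libraries a group.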

Other observations

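The balance of the 2 main glucose transporters differed between the clone and the pool libraries. SLC2A1 made up 41.6%, 48.2% and 67.2% of the summed FPKM of SLC2A1 and SLC2A3 in parental clones 1 to 3, and 35.2% to 43.8% in the mutant ASXL1 knockout clones. It made up 75.5% to 82.8% in the 6 pools. No test was made across the clone and pool tables. A share within a library does not depend on the scaling between libraries.

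PDK2, too low for a test, was at 0.704, 0.393 and 0.371 FPKM in the parental clones, 0.324, 0.172 and 0.0760 FPKM in the mutant ASXL1 knockout clones, 0.0410 and 0.634 FPKM in the SCR pools, 0.480 and 0.207 FPKM in the FOXK1 pools and 1.28 and 0.856 FPKM in the FOXK2 pools. GPT2, an alanine aminotransferase that converts pyruvate to alanine, was at 20.8, 19.1 and 18.1 FPKM in the parental clones and 26.9, 23.3 and 25.3 FPKM in the mutant ASXL1 knockout clones. It was at 12.4 and 10.7 FPKM in the SCR pools, 4.82 and 7.49 FPKM in the FOXK1 pools and 6.20 and 6.44 FPKM in the FOXK2 pools. The 2 kinds of knockout thus lay on opposite sides of their own controls for GPT2, which was named after its values were seen. The groups did not overlap for 42.9% (ASXL1), 54.9% (FOXK1) and 54% (FOXK2) of all tested genes. Its ASXL1 call (log2 difference 0.365, limma adjusted p = 0.0222) was lost under 3 of 14 alternatives, and limma called it in neither FOXK comparison. The authors' deposited tables give it as 0.23 for ASXL1, -1.08 for FOXK1 and -0.90 for FOXK2, all called.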
